A study of Homo sapiens with 6 samples.

Results

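ANKRD1, CRIM1, VGLL1, THBS1 and TAGLN are genes known for their response to the coactivators YAP and TAZ, to the TEAD transcription factors or to tension in the actin cytoskeleton. They were followed in Caco-2 cells, an established human colon carcinoma line, after delivery of hairpins against FAM46A, also called TENT5A, which belongs to the enzymes that add nucleotides to RNA tails outside the canonical poly(A) machinery. The genes were picked by symbol, with their values on these same arrays already known, so those values are a description and carry no test. Each symbol matched 1 probe set, which makes 5 of the 14884 named genes measured.

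Total RNA was hybridised to 6 single-channel Affymetrix arrays, 1 per sample. Infection with lentivirus took place in subconfluent cultures and RNA was taken on day 17 after it, so the controls carry a lentiviral hairpin too. The 3 groups held 2 arrays each, labelled biological replicates, and expressed scramble shRNA (the control), FAM46A-shRNA#2 or FAM46A-shRNA#4, a pair of different hairpins against the same transcript. The labels do not say what separates the replicates, so each p-value reflects no more than the variation among these samples, and that variation may be technical. The level of FAM46A was not analysed here and group membership rests on the labels. Every deposited value was taken as log2 and is centred, by probe set, on the median array. A value of 0 therefore means the middle of the 6 arrays, no level of expression can be read, and the pair of middle arrays always lies evenly around 0. Errors after ± are standard errors (SE) of a linear fit with n = 2 arrays per group. Both hairpins were compared with the same scramble arrays, so the 2 comparisons are not independent. Only the difference of shRNA#4 from shRNA#2 does without those arrays, and the spread of those arrays still enters its SE and p-value.

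In the Hippo pathway a chain of kinases ending in LATS1 and LATS2 phosphorylates YAP and TAZ and keeps them out of the nucleus. When the kinases are quiet, YAP and TAZ enter the nucleus, bind TEAD factors on DNA and switch on genes of growth, adhesion and matrix, often from enhancers that AP-1 factors share. In the intestine YAP is best known for its part in regeneration after injury, where it is held to shift the epithelium away from mature enterocytes. VGLL proteins bind the same face of TEAD and compete with YAP. ANKRD1, a nuclear and sarcomeric ankyrin repeat protein, is among the most used YAP targets, and CRIM1, a membrane protein that binds bone morphogenetic proteins (BMPs), belongs to common YAP target lists. THBS1 (thrombospondin 1) is a secreted matrix protein that can activate latent TGF-beta. TAGLN (transgelin) is an actin-binding protein of smooth muscle and best known as a target of SRF, the serum response factor.

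TEAD factors read a short core, GGAATG, on either strand. The 250 bases before the start site were searched for GGAATG and its reverse complement CATTCC in RefSeq's promoter table (GRCh38.p14), which matched 3 of the 5 genes, ANKRD1, THBS1 and VGLL1. All 3 hold the core, which 10.1% of 15843 protein-coding promoters of the same length hold. All 3 matched promoters are shown, with the core in capitals and the last base next to the start site. CRIM1 and TAGLN were not matched, so their promoters were not searched. ANKRD1 is at chr10:90921088-90921337 on the minus strand, THBS1 at chr15:39580829-39581078 on the plus strand and VGLL1 at chrX:136531965-136532214 on the plus strand.
ANKRD1: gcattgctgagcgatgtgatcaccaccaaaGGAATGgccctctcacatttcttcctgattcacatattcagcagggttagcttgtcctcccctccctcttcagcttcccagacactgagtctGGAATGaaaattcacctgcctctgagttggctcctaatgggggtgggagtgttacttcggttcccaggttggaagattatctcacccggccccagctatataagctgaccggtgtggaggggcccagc
THBS1: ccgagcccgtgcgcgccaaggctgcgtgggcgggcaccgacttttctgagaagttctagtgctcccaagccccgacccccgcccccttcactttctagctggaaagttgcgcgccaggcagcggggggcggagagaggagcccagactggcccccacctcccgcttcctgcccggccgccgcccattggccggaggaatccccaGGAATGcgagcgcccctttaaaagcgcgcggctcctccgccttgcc
VGLL1: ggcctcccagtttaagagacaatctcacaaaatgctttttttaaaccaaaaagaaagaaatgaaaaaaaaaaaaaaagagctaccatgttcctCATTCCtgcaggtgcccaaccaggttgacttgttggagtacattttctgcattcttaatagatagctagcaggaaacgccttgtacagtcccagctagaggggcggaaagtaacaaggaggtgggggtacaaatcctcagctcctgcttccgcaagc
The ANKRD1 promoter held the core at 2 places, beginning 220 and 128 bases before the start site. In THBS1 it began 46 bases before the start site and in VGLL1, as CATTCC, 157 bases before it. The AP-1 motif TGANTCA, which reads the same on both strands and overlaps no TEAD core here, began 195 bases before the start of ANKRD1 and was in 5.04% of all these promoters. THBS1 and VGLL1 did not have these letters in the window. A match is a run of letters and was not tested as a binding site.

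ANKRD1 stood at -0.73 and -0.57 on the scramble arrays, at -0.19 and 0.19 with shRNA#2, and at 1.11 and 1.17 with shRNA#4. The groups did not overlap and were higher in that order. The difference from scramble was 0.65 ± 0.13 on the log2 scale with shRNA#2 and 1.78 ± 0.13 with shRNA#4, a 3.44-fold difference that ranked 9 from the top among all 14884 genes.

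THBS1 followed the same order, with -0.78 and -0.70 on scramble, -0.25 and 0.25 with shRNA#2, and 0.88 and 0.89 with shRNA#4. Its difference from scramble was 0.74 ± 0.15 with shRNA#2 and 1.63 ± 0.15 (3.09-fold, rank 17) with shRNA#4. The shRNA#2 arrays lay 0.50 apart in this matrix gene, more than in 99.8% of all genes in that group. The shRNA#2 difference was 0.49 without replicate 2 of shRNA#2 and 0.99 without replicate 1.

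CRIM1 was the least changed of the 5 with shRNA#4. It stood at -0.29 and -0.24 on scramble, -0.06 and 0.06 with shRNA#2, and 0.52 and 0.51 with shRNA#4. The differences from scramble were 0.27 ± 0.060 and 0.78 ± 0.060 (1.72-fold, rank 267). In these 3 genes the shRNA#4 arrays lay above the shRNA#2 arrays and those above the scramble arrays, an order that 7.61% of all genes show. The shRNA#2 difference was 36.3% of the shRNA#4 difference for ANKRD1, 34.3% for CRIM1 and 45.6% for THBS1.

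VGLL1 set the hairpins apart. It stood at -0.15 and -0.25 on scramble, 0.15 and -0.30 with shRNA#2, and 1.62 and 1.65 with shRNA#4. The scramble and shRNA#2 arrays overlapped, and both shRNA#4 arrays were far above them. The difference from scramble was 0.13 ± 0.14 with shRNA#2, which turned to -0.096 without replicate 1 of that group, and 1.84 ± 0.14 (3.58-fold, rank 8) with shRNA#4. Between the hairpins VGLL1 differed by 1.71 ± 0.14, rank 4 of all genes.

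TAGLN lay on opposite sides of scramble with the 2 hairpins. It stood at -0.041 and 0.041 on scramble, -0.30 and -0.16 with shRNA#2, and 1.11 and 1.12 with shRNA#4, with no overlap between groups. Relative to scramble it was lower with shRNA#2 by a small amount (-0.23 ± 0.064) and higher with shRNA#4 (1.11 ± 0.064, 2.16-fold, rank 75). The hairpins differed in it by 1.34 ± 0.064, which ranked 16.

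Both shRNA#4 arrays thus lay above the 4 other arrays in all 5 genes, as they did in 17.5% of all genes. Read against scramble alone, both shRNA#4 arrays lay above in 31.8% of all genes and below in 26.8%, and against shRNA#2 above in 29.9% and below in 24.6%. The genes differed in the side of scramble on which the shRNA#2 arrays lay. These lay above it for ANKRD1, CRIM1 and THBS1 (29.7% of all genes do), across it for VGLL1 and below it for TAGLN (28.9%). In size the differences from scramble varied with either hairpin, from -0.23 to 0.74 with shRNA#2 and from 0.78 to 1.84 with shRNA#4. The replicates of shRNA#2 were also far apart in some of these genes. Beside THBS1, the gap was 0.38 for ANKRD1 and 0.45 for VGLL1, wider than in 99.2% and 99.6% of genes. It was 0.129 for CRIM1 and 0.136 for TAGLN, wider than in 76.7% and 78.6%, against a median gap of 0.065 over all genes in that group. With shRNA#4 the gaps of the 5 genes were at most 0.0595, below the median gap of 0.0725 there. The array of shRNA#2 with the higher value was replicate 2 in ANKRD1, CRIM1, THBS1 and TAGLN but replicate 1 in VGLL1.

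**Figure D1:**
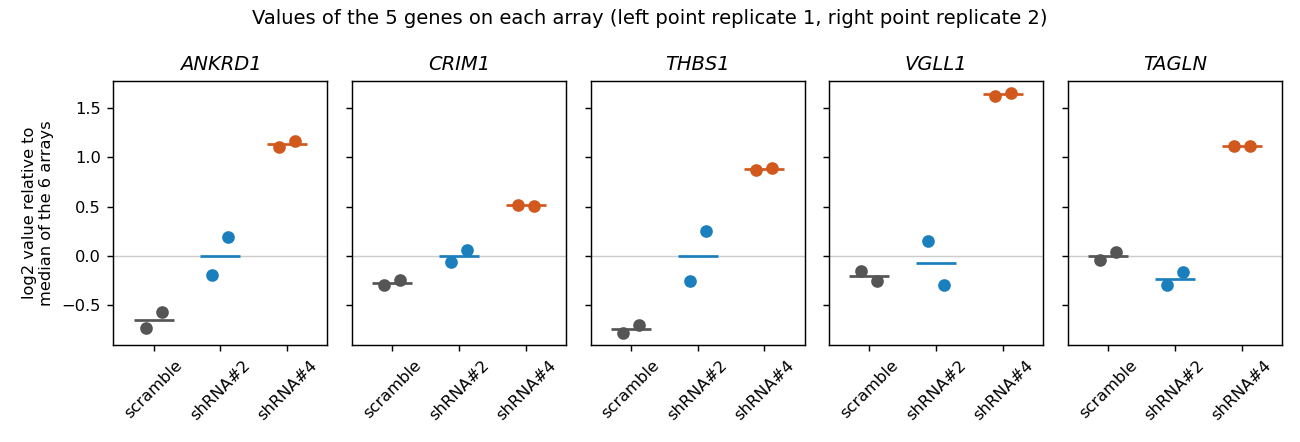
Log2 value of each gene on each array, centred on the middle of the 6 arrays, with 1 panel per gene. Points are single arrays and bars are group means, and the shRNA#4 points lie highest in every panel, from 0.51 in CRIM1 to 1.65 in VGLL1.

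**Figure D2:**
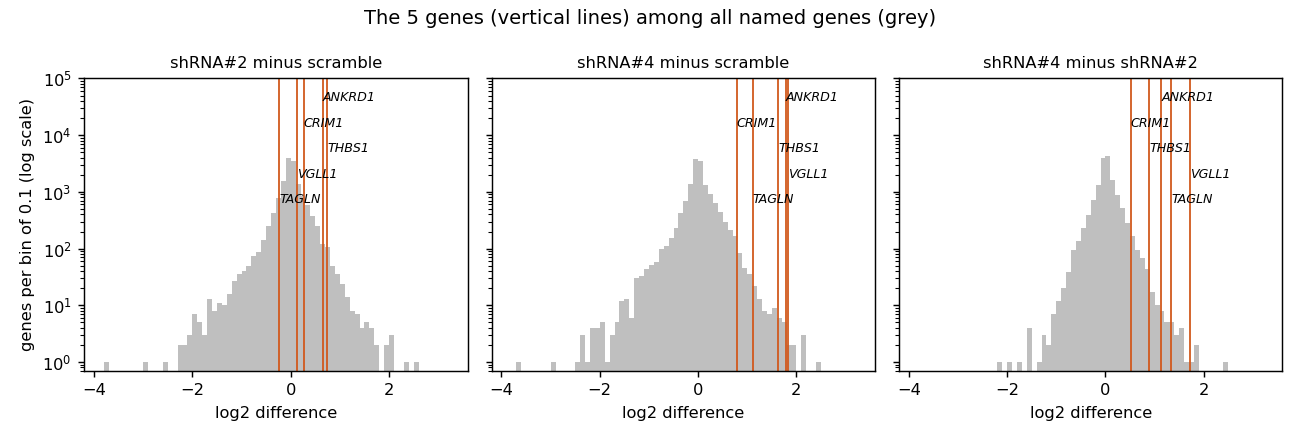
Histograms of the log2 difference of all 14884 named genes in each of 3 comparisons, with the number of genes on a log axis and the 5 genes as vertical lines. With shRNA#2 against scramble the lines run from -0.23 to 0.74, and with shRNA#4 against scramble from 0.78 to 1.84.

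Genes that tracked them were sought over the 6 arrays among the 3579 other genes whose values spanned at least 0.5. ANKRD1 and CRIM1 were each among the closest 3 of the other (Pearson r = 0.999), with GNL3L and the zinc finger gene ZNF530 in both sets. Closest to THBS1 was CRIM1-DT, the divergent transcript beside CRIM1 (r = 0.998), which differed from scramble by 0.37 with shRNA#2 and 0.88 with shRNA#4. ZNF841 and MRPL9, a protein of the mitochondrial ribosome, came next (both r = 0.997). VGLL1 was tracked best by KRTAP3-1, STX18 and STAM (r from 0.995 to 0.996), and TAGLN by TMEM216, BRAP and DCTN4 (r from 0.996 to 0.998). With 6 arrays in 3 groups such values are common, and r was over 0.95 for between 124 (VGLL1) and 276 (CRIM1) genes, so the likeness is a description only.

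The other parts of the TEAD complex changed in both directions. WWTR1, which encodes TAZ, stood at 0.72 and 0.70 on scramble, -0.36 and -0.28 with shRNA#2, and 0.12 and -0.12 with shRNA#4, and so lay lower with either hairpin. It fell by 1.03 ± 0.084 with shRNA#2 (adjusted p 0.00107, limma) and by 0.71 ± 0.084 with shRNA#4 (adjusted p 0.00217). VGLL3, a relative of VGLL1, fell by 0.77 ± 0.098 with shRNA#2 (adjusted p 0.00383) and by 0.46 ± 0.098 with shRNA#4 (adjusted p 0.0174), and the second call ended without either scramble array or without replicate 1 of shRNA#4 (adjusted p from 0.0540 to 0.0800).

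TEAD4 stood at -0.13 and -0.0047 on scramble and near 0 with shRNA#2 (difference 0.07 ± 0.064), while shRNA#4 gave 0.40 and 0.49. It rose by 0.51 ± 0.064 with shRNA#4 (adjusted p 0.00256, limma). Between the hairpins TEAD4 differed by 0.44 ± 0.064 (adjusted p 0.00853), a call that ended narrowly without either shRNA#2 array (0.0583 and 0.0502). TEAD4 and VGLL1, which can bind each other, were thus both highest on the shRNA#4 arrays, as were 17.5% of all genes. A link between the 2 was not tested. TEAD1 rose by 0.52 ± 0.073 with shRNA#4 (adjusted p 0.00395). Its rise of 0.30 with shRNA#2 (adjusted p 0.0345) was lost without any array but replicate 2 of scramble (0.0599 to 0.144). YAP1 rose by 0.32 with shRNA#2 (adjusted p 0.0459, limma), a call lost without any array but replicate 2 of shRNA#2 (differences 0.22 to 0.34). For TEAD1 and YAP1, leaving out an shRNA#4 array left the shRNA#2 difference unchanged and changed only the spread behind the p-value. TEAD2 rose by 0.525 ± 0.077 with shRNA#2 (adjusted p 0.00575) and stood at 0.24 ± 0.077 with shRNA#4 (adjusted p 0.0665). TEAD3, VGLL2 and VGLL4 were not called in any comparison, with differences from scramble between -0.15 and 0.13.

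Counted over the 9 genes of YAP1, TAZ, the TEADs and the VGLLs other than VGLL1, 3 rose and 2 fell with shRNA#2, where 21.6% of all genes were called (limma, Benjamini-Hochberg adjusted p under 0.05), 12.1% higher and 9.54% lower. With shRNA#4 2 rose and 2 fell, where 26.1% of all genes were called, 15.7% higher and 10.4% lower. Between the hairpins 1 of the 9 differed, against 15.3% of all genes, 8.63% higher and 6.64% lower. With quantile normalization 4 of the 9 differed between the hairpins, with WWTR1 (0.42, adjusted p 0.0215, limma), VGLL3 (0.40, 0.0473) and TEAD2 (-0.34, 0.0326) beside TEAD4. The median difference of the 9 was -0.044 with shRNA#2 and 0.13 with shRNA#4, beside medians over all genes of -0.0018 and 0.0045.

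Of the other genes on a common YAP and TAZ target list, FJX1 ran in the order of ANKRD1, and the list as a whole was divided. Of the 22 on the list 12 were measured, 10 without ANKRD1 and CRIM1. With shRNA#2 1 of the 10 rose and 3 fell, with shRNA#4 1 rose and 1 fell, and between the hairpins 3 were higher with shRNA#4 and 0 lower (limma, with 5 and 0 at an unadjusted p under 0.05). These are 40%, 20% and 30% of the 10, where 21.6%, 26.1% and 15.3% of all genes were called. The medians of the 10 were -0.13, 0.0076 and 0.12. The label of YAP and TEAD responsive genes therefore describes what the 5 are known for, and most of this list did not rise with them.

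FJX1, a secreted regulator of the Fat and Dachsous pathway, was the 1 that rose with both hairpins, by 0.61 ± 0.079 (adjusted p 0.00394, limma) and 0.84 ± 0.079 (adjusted p 0.00105). Its arrays read -0.53 and -0.70 on scramble, -0.05 and 0.05 with shRNA#2, and 0.18 and 0.28 with shRNA#4. DOCK5, a Rac exchange factor, fell by 0.54 ± 0.091 with shRNA#4 (adjusted p 0.00762) and by 0.47 ± 0.091 with shRNA#2 (adjusted p 0.0149), and the second call ended without replicate 2 of scramble or replicate 1 of shRNA#2 (0.0690 and 0.0847). MYOF (myoferlin), a membrane repair protein, fell by 0.55 ± 0.082 with shRNA#2 (adjusted p 0.00626) and stood at -0.012 ± 0.082 with shRNA#4. AMOTL2, an angiomotin that holds YAP at junctions, fell by 0.62 ± 0.13 with shRNA#2 (adjusted p 0.0215), a call that ended without replicate 2 of scramble or without either shRNA#2 array (0.0534 to 0.114).

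CCN2, with ANKRD1 the most used YAP target, stood at -0.11 ± 0.086 with shRNA#2 and 0.24 ± 0.086 with shRNA#4, and neither was called (adjusted p 0.475 and 0.0985, limma). Its difference of 0.35 between the hairpins passed (adjusted p 0.0452) but came from 1 of 2 probe sets, at 0.62 against 0.072. The call was lost without any 1 of the 4 hairpin arrays (0.0781 to 0.206). The differences between hairpins of MYOF (0.54, adjusted p 0.0107) and AMOTL2 (0.54, adjusted p 0.0455) were also lost without some of these arrays, MYOF without replicate 1 of either hairpin (0.0698 and 0.0535) and AMOTL2 without any 1 of the 4 (0.0596 to 0.204). The receptor kinase AXL, IGFBP3, FOXF2, CCDC80 and ARHGEF17 were not called, with differences from scramble between -0.27 and 0.31. The core GGAATG was in the promoters of CCN2 and FOXF2 among 8 of these 10 genes matched.

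**Figure D3:**
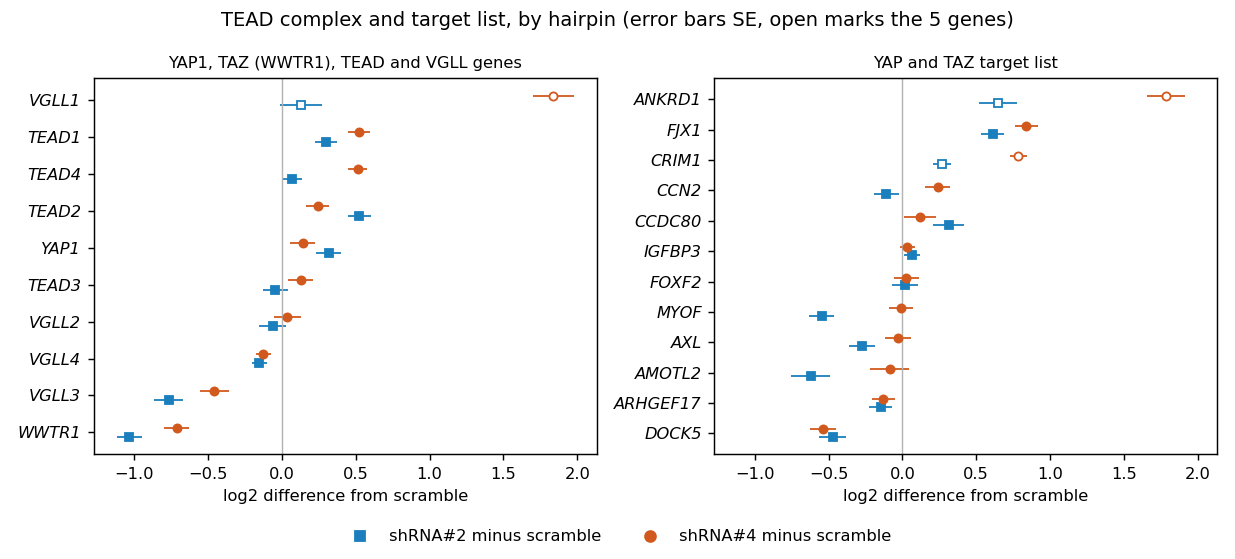
Log2 difference from scramble for each hairpin (squares shRNA#2, circles shRNA#4, error bars SE) for the TEAD complex genes on the left and the YAP and TAZ target list on the right, with open marks for the genes among the 5. VGLL1 lies at 1.84 with shRNA#4 and 0.13 with shRNA#2, and the target list runs from ANKRD1 at 1.78 to DOCK5 at -0.54 with shRNA#4.

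Of 46 Hippo kinases, scaffolds and upstream regulators listed 34 were measured, and LATS1 and LATS2 were not among the 34. Of these, 9 rose and 3 fell with shRNA#2, and 7 rose and 7 fell with shRNA#4. Between the hairpins 1 was higher with shRNA#4 and 5 were lower. Called were thus 35.3%, 41.2% and 17.6% of the list, beside 21.6%, 26.1% and 15.3% of all genes. The medians of the list were 0.044 and 0.043 against scramble. TNIK, a MAP4K family kinase that also serves Wnt signalling, went opposite ways, rising by 0.79 ± 0.085 with shRNA#2 (adjusted p 0.0023, limma) and falling by 0.71 ± 0.085 with shRNA#4 (adjusted p 0.00225). Its arrays read 0.11 and -0.11 on scramble, 0.84 and 0.75 with shRNA#2, and -0.67 and -0.75 with shRNA#4, so TNIK was lowest where VGLL1 and TAGLN were highest. WWC2, a scaffold of the LATS kinases, rose by 0.80 ± 0.13 and 1.05 ± 0.13 (adjusted p 0.00764 and 0.0023). MAP4K4, which can phosphorylate LATS, rose by 0.73 ± 0.12 and 0.95 ± 0.12 (adjusted p 0.00874 and 0.00285), and its relative MAP4K5 by 0.74 ± 0.086 and 0.47 ± 0.086 (adjusted p 0.00293 and 0.0106). The shRNA#2 call of MAP4K4 ended without replicate 2 of shRNA#2 (0.0501) and the shRNA#4 call of MAP4K5 without replicate 1 of shRNA#4 (0.0605).

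TAGLN was set beside the other SRF target and contractile genes. Of 15 measured without TAGLN, 5 rose and 0 fell with shRNA#2 (limma, 6 and 0 at an unadjusted p under 0.05), 5 rose and 3 fell with shRNA#4, and between the hairpins 3 were higher with shRNA#4 and 4 lower. These are 33.3%, 53.3% and 46.7% of the list, where 21.6%, 26.1% and 15.3% of all genes were called. SRF itself stood at -0.17 and -0.27 on scramble, -0.0067 and 0.0067 with shRNA#2, and 0.44 and 0.43 with shRNA#4. It rose by 0.66 ± 0.052 with shRNA#4 (adjusted p 0.000665), and was higher there than with shRNA#2 by 0.44 ± 0.052 (adjusted p 0.00541). Its rise of 0.22 with shRNA#2 was called (0.0312), a call that ended without any array but replicate 1 of scramble (0.0543 to 0.132).

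Actin-binding proteins of the list differed between the hairpins in both directions. TAGLN2 and TPM4, a relative of TAGLN and a tropomyosin, are given here with their values already seen. TAGLN2 was higher with shRNA#4 than with shRNA#2 by 0.36 ± 0.053 (adjusted p 0.0101, limma), a call that ended without replicate 1 of shRNA#2 or replicate 2 of shRNA#4 (0.0643 and 0.0549). For TPM4 the difference was 0.27 ± 0.070 (adjusted p 0.049997), lost without any 1 of the 6 arrays (0.0585 to 0.199) and under most other settings. In the other direction were 4 genes. CNN2, also given with its values already seen, was lower with shRNA#4 than with shRNA#2 (-0.42 ± 0.086, adjusted p 0.0242, limma). Against scramble CNN2 stood at 0.41 with shRNA#2 (adjusted p 0.0199, limma) and -0.012 with shRNA#4. Whether its calls hold without single arrays was not checked. CALD1 (caldesmon) was lower with shRNA#4 than with shRNA#2 by a log2 difference of -0.48 ± 0.055 (adjusted p 0.00486, limma), VCL (vinculin) by -0.62 ± 0.11 (adjusted p 0.0153) and PDLIM5 by -0.51 ± 0.067 (adjusted p 0.00665). The call of VCL ended without either shRNA#2 array or replicate 2 of shRNA#4 (0.0626 to 0.0812). PDLIM5 fell by 0.40 ± 0.067 with shRNA#4 against scramble (adjusted p 0.00779). Against scramble VCL stood at 0.42 with shRNA#2, a call lost without replicate 2 of scramble or either shRNA#2 array (0.0981 to 0.171). CALD1 stood at 0.28 with shRNA#2, lost without replicate 1 of scramble or either shRNA#2 array (0.0792 to 0.087), and at -0.21 with shRNA#4, lost without any 1 of the 6 arrays (0.0611 to 0.165).

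AP-1 factors differed between the hairpins. Of 9 measured, 4 rose and 1 fell with shRNA#4 against scramble, and 5 were higher and 0 lower with shRNA#4 than with shRNA#2 (limma, 6 and 1 at an unadjusted p under 0.05), where 8.63% of all genes were higher. Against scramble 55.6% of the list were called with shRNA#4 and 22.2% with shRNA#2, beside 26.1% and 21.6% of all genes. With shRNA#2 against scramble 0 rose and 2 fell (1 and 2 unadjusted). ATF3, a stress-induced factor, stood at -0.20 and -0.10 on scramble, 0.0052 and -0.0052 with shRNA#2, and 0.97 and 1.09 with shRNA#4, and rose by 1.18 ± 0.064 with shRNA#4 (adjusted p 0.000311). JUN stood at 0.08 and -0.15, -0.17 and -0.08, and 0.63 and 0.81 in the same order of groups, and rose by 0.76 ± 0.099 with shRNA#4 (adjusted p 0.00312). Both were higher with shRNA#4 than with shRNA#2, as all 5 genes were, ATF3 by 1.03 ± 0.064 (adjusted p 0.00154, limma) and JUN by 0.85 ± 0.099 (adjusted p 0.00508, limma). By arrays ATF3 ran in the order of ANKRD1, which 7.61% of all genes show, while the scramble and shRNA#2 arrays of JUN overlapped as in VGLL1. In 17.5% of all genes both shRNA#4 arrays lay above the 4 others. FOSL2 instead fell by 0.93 ± 0.063 and 0.91 ± 0.063 with shRNA#2 and shRNA#4 (adjusted p 0.000666 and 0.000454).

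Genes that work with THBS1 were counted next. Of 14 measured thrombospondins, receptors and latent TGF-beta binding proteins without THBS1, 2 rose and 2 fell with shRNA#2, and 2 rose and 5 fell with shRNA#4. That is 28.6% and 50.0% of the list called, against 21.6% and 26.1% of all genes. CD47, a receptor of THBS1, rose by 1.03 ± 0.083 with shRNA#2 (adjusted p 0.00102, limma) and 0.645 ± 0.083 with shRNA#4 (adjusted p 0.00292). LRP1, a receptor that clears thrombospondins from the matrix, fell by 0.85 ± 0.074 and 0.93 ± 0.074 (adjusted p 0.00129 and 0.000673). Of the latent TGF-beta binding proteins LTBP4 fell by 1.12 ± 0.115 and 0.96 ± 0.115 (adjusted p 0.00202 and 0.00228), while LTBP1 rose by 0.80 ± 0.071 with shRNA#2 (adjusted p 0.00133). The rise of LTBP1 with shRNA#4 (0.30, adjusted p 0.0255) ended without replicate 2 of scramble or either shRNA#4 array (0.0593 to 0.121).

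**Figure D4:**
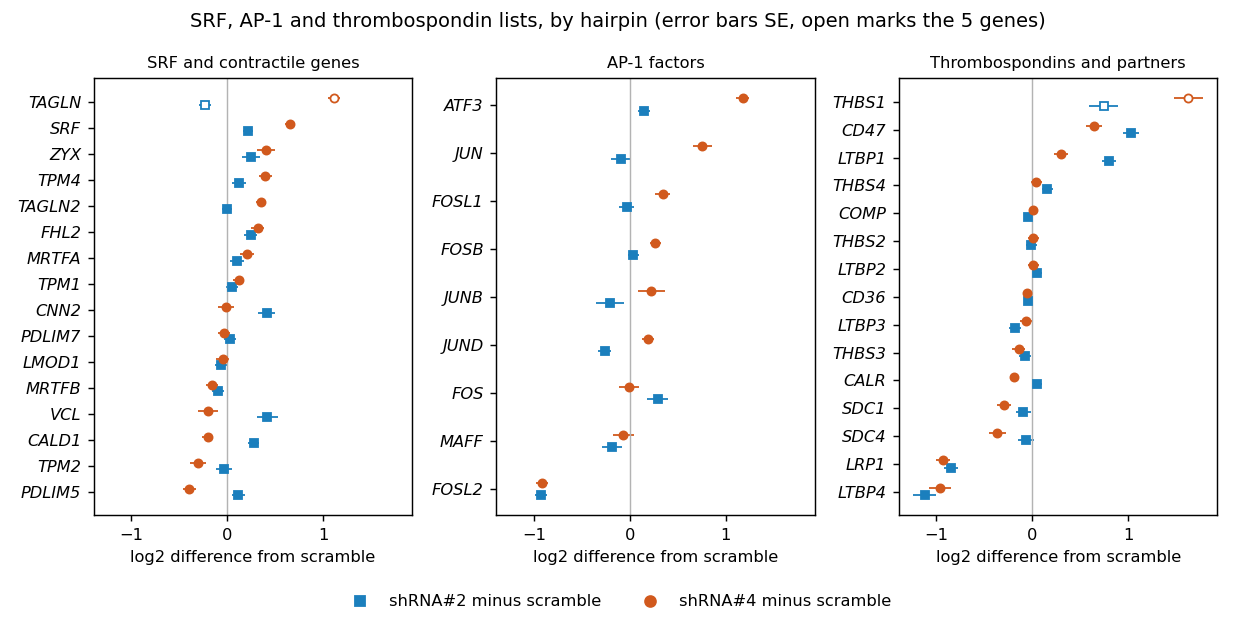
Log2 difference from scramble for each hairpin (squares shRNA#2, circles shRNA#4, error bars SE) for the SRF and contractile list, the AP-1 factors and the thrombospondins with their partners, with open marks for TAGLN and THBS1. TAGLN at 1.11 and ATF3 at 1.18 with shRNA#4 head their panels, and FOSL2 lies at -0.93 and -0.91.

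CRIM1 binds BMPs, and of 16 other measured genes of BMP signalling 3 rose and 1 fell with either hairpin. This share of 25.0% is near that over all genes (21.6% and 26.1%). BMP4 stood at 0.55 and 0.76 with shRNA#4 against -0.11 and -0.0036 on scramble, a rise of 0.71 ± 0.11 (adjusted p 0.00555, limma), and was at -0.07 ± 0.11 with shRNA#2. TWSG1, an extracellular BMP modulator, rose by 0.74 ± 0.063 and 0.51 ± 0.063 (adjusted p 0.00119 and 0.00249), and BMP7 rose by 0.42 ± 0.079 and 0.50 ± 0.079 (adjusted p 0.0135 and 0.00586), the first of which ended without replicate 2 of shRNA#2 (0.0773). SMAD6, an inhibitor of the pathway, fell by 0.49 ± 0.072 with shRNA#4 (adjusted p 0.00446). Of the 6 relatives and sarcomere partners of ANKRD1 0 were called by limma in any of the 3 comparisons, and 0, 0 and 1 had an unadjusted p under 0.05.

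Of 33 integrin and focal adhesion genes listed 13 were measured, and none of those was an integrin. Among the 13 measured, 3 rose and 2 fell with shRNA#2, and 1 rose and 3 fell with shRNA#4. The list had 38.5% and 30.8% called, and all genes 21.6% and 26.1%. FERMT2 (kindlin 2), which activates integrins, rose by 0.50 ± 0.079 and 0.80 ± 0.079 (adjusted p 0.00767 and 0.00125, limma). LIMS1, an adaptor of the integrin-linked kinase, fell by 0.46 ± 0.084 with shRNA#4 (adjusted p 0.0107, limma). The LIMS1 call ended without replicate 2 of shRNA#4 (difference -0.39). TLN2 (talin 2) fell by 0.47 ± 0.052 with shRNA#4 (adjusted p 0.00179, limma). With shRNA#2 TLN2 stood at -0.26 ± 0.052 (adjusted p 0.0170), a call that ended without some single arrays.

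Genes of the regenerating or fetal gut, a state tied to YAP, were counted as well. Of 14 measured 2 rose and 4 fell with shRNA#2, and 3 rose and 3 fell with shRNA#4. In both comparisons 42.9% of the list were called, beside 21.6% and 26.1% of all genes. EREG, a ligand of the EGF receptor, stood at -1.49 and -0.98 on scramble, -0.19 and 0.19 with shRNA#2, and 0.28 and 0.44 with shRNA#4, and rose by 1.24 ± 0.19 and 1.60 ± 0.19 (adjusted p 0.00718 and 0.00231, limma). ANXA1 (annexin A1) rose by 1.13 ± 0.10 with shRNA#4 (adjusted p 0.000901) and stood at 0.23 ± 0.10 with shRNA#2. EMP1 fell by 1.06 ± 0.14 with shRNA#2 (adjusted p 0.00403, limma), and S100A6 by 0.735 ± 0.097 with shRNA#4 (adjusted p 0.00323). Both were also called lower with the other hairpin. EMP1 stood at -0.50 ± 0.14 with shRNA#4 (adjusted p 0.0421) and S100A6 at -0.40 ± 0.097 with shRNA#2 (adjusted p 0.0336). These last 2 calls ended without some single arrays.

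THBS1, TAGLN and ANKRD1 are also genes of mesenchymal and muscle cells, so markers of other cells were read beside them, against the 21.6% and 26.1% of all genes called with shRNA#2 and shRNA#4. Less RNA per cell and fewer cells of a type cannot be told apart in bulk RNA, and whether a marker was expressed at all cannot be seen from these values. Of 9 measured mesenchymal markers (18 listed) 1 rose and 1 fell with either hairpin, and their mean lay between -0.045 and -0.037 on the scramble arrays, 0.038 and 0.066 with shRNA#2, and -0.0042 and 0.020 with shRNA#4. VIM (vimentin) rose by 0.42 ± 0.056 with shRNA#4 (adjusted p 0.00327, limma), with 3 probe sets at 0.94, 0.21 and 0.10. THY1 stood at -0.19 ± 0.051 with shRNA#2 and -0.21 ± 0.051 with shRNA#4 (adjusted p 0.0446 and 0.0286, limma). FN1 stood at 0.37 ± 0.074 with shRNA#2 and 0.24 ± 0.074 with shRNA#4 (adjusted p 0.0180 and 0.0672, limma). The calls of THY1 and FN1 ended without some single arrays. None of 4 measured smooth muscle markers (9 listed) was called by limma, and their mean stayed between -0.026 and 0.023 on all arrays. At an unadjusted p under 0.05 there were 1, 0 and 1 of them in the 3 comparisons.

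Among 5 measured endothelial markers (7 listed) ESAM rose by 0.63 ± 0.070 with shRNA#4 (adjusted p 0.00176, limma), and the mean was 0.088 and 0.13 there against -0.029 to 0.041 on the other arrays. PECAM1, VWF, KDR and CLDN5 were not called and stood between -0.077 and 0.029 with shRNA#4, so the higher mean came from ESAM. Of 4 measured leukocyte markers (7 listed) 2 fell with both hairpins, CD68 and LAPTM5, which encode lysosomal membrane proteins. CD68 fell by 1.88 ± 0.20 with shRNA#2 and by 2.14 ± 0.20 with shRNA#4 (adjusted p 0.00219 and 0.00102, limma). The calls of LAPTM5 were lost without replicate 1 of shRNA#2 (0.0564) and without either shRNA#4 array (0.0623 and 0.102). CD14 and TYROBP, the others measured, lay higher with both hairpins and were not called. CD14 stood at 0.31 ± 0.11 with shRNA#2 and 0.36 ± 0.11 with shRNA#4 (adjusted p 0.111 and 0.0637, limma), and TYROBP at 0.11 and 0.051. With either hairpin 1 of the list was higher at an unadjusted p under 0.05. The leukocyte mean, in which CD68 had the largest differences, was 0.39 and 0.64 on scramble and -0.11 to -0.029 on the hairpin arrays. Of 8 measured epithelial markers (10 listed) 3 fell and 0 rose with shRNA#2 (limma, 3 and 0 unadjusted), and 3 fell and 1 rose with shRNA#4. KRT20 fell most, by 1.17 ± 0.24 and 1.20 ± 0.24 (adjusted p 0.0184 and 0.0136, limma), and each call ended without either array of that hairpin. VIL1 (villin) of the brush border fell by 0.48 ± 0.068 and 0.74 ± 0.068 (adjusted p 0.00514 and 0.00102, limma). With shRNA#4 CDX2 fell by 0.36 ± 0.075 and KRT18 rose by 0.49 ± 0.12 (adjusted p 0.0162 and 0.0315, limma), calls that ended without some single arrays. The epithelial mean was 0.26 and 0.18 on scramble against -0.040 to 0.056 on the hairpin arrays. KRT20, at 1.56 and 0.75 on scramble, weighed most in it. Some of these markers moved beside the 5 genes, and their part in the differences was not tested.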

How the data were processed

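Per the labels' protocols, sense-strand DNA was prepared from total RNA with the WT PLUS kit and hybridised to single-channel Affymetrix arrays. The deposited log2 values had been set by the authors relative to each probe set's median over the 6 arrays, as read from the values (row medians within 5e-07 of 0, range -2.65 to 3.53). The log base was taken to be 2, and summarisation, normalization and software were not given in the sources used here.

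Of 48144 probe sets 16098 had 1 gene symbol through the platform table and RefSeq. The other 32046 had no symbol or several and were left out. The 16098 kept gave 14884 genes, and probe sets of the 779 genes with several were averaged. Groups were compared with limma 3.58.1 under R 4.3.3, in 1 fit of 6 arrays (lmFit, then eBayes with no trend, residual df 3 and prior df 3.09), with Benjamini-Hochberg adjustment over all genes and calls at an adjusted p under 0.05. The number of arrays limits the precision, and with the level removed dim probe sets could not be filtered. The code was tested on simulated data. Alternatives are in the closing section.

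The 5 genes and all lists were chosen with earlier results of these data known. Named genes were the 5, all measured YAP, TAZ, TEAD, VGLL and target genes, up to 4 called genes of each further list by largest difference, and the 3 genes closest to each of the 5. Also given, outside that rule and its counts, were TAGLN2, TPM4, CNN2, PECAM1, VWF, KDR, CLDN5, CD14 and TYROBP. Plots and the motif search used Python 3.11.15, pandas 2.3.3 and matplotlib 3.10.9.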

Additional observations from a re-analysis of the deposited data

Results flagged for a closer look

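The effects of the hairpins against scramble differed from each other, by the test of shRNA#4 against shRNA#2 (limma adjusted p under 0.05), for a number of the named genes outside the 5. On the log2 scale shRNA#4 was higher for ATF3 (1.03), ANXA1 (0.90), JUN (0.85), BMP4 (0.78), ESAM (0.78), EMP1 (0.56), MYOF (0.54), AMOTL2 (0.54), JUND (0.46), TEAD4 (0.44), SRF (0.44), CCN2 (0.35) and VIM (0.28). It was lower for TNIK (-1.51), VCL (-0.62), SMAD6 (-0.56), PDLIM5 (-0.51), LTBP1 (-0.50), LIMS1 (-0.49), CALD1 (-0.48), CD47 (-0.39) and TLN2 (-0.21). Adjusted p ran from 0.00154 for ATF3 and TNIK to 0.0488 for TLN2. The calls of AMOTL2, CCN2, CD47, EMP1, JUND, LIMS1, LTBP1, MYOF, TEAD4, TLN2, VCL and VIM ended without at least 1 of the hairpin arrays, and the others held without each array in turn. Those of EMP1 and TLN2 also ended without either scramble array.

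TAGLN (1.34) is listed for another reason. Both shRNA#2 arrays lay below both scramble arrays and both shRNA#4 arrays above them, and this difference was not tested, since TAGLN was chosen with its values known. Over all genes the shRNA#2 arrays lay below scramble in 28.9% and the shRNA#4 arrays above it in 31.8%. The share of genes that show both was not counted. CALD1 lay on the opposite sides, at 0.28 with shRNA#2 and -0.21 with shRNA#4.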

How the results depend on the processing

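With 2 arrays a group the calls depend most on single arrays. An array of the group not compared does not enter a difference. Without it only the spread, its residual df and the p-value changed. Leaving out each array in turn gave 1756 to 2982 genes called with shRNA#2 against scramble (3220 with all), 2677 to 3476 with shRNA#4 (3884 with all) and 761 to 2166 between the hairpins (2272 with all), the lowest of the first and last without replicate 1 of shRNA#2. For the 10 YAP and TAZ targets it gave 2 to 5 calls with shRNA#2, 2 to 3 with shRNA#4 and 0 to 3 between the hairpins. An adjusted p under 0.01 left 1575, 2122 and 769 genes (shRNA#2, shRNA#4, between hairpins) and 2 of the targets with shRNA#2 and 0 between hairpins. A 2-fold minimum left 221, 279 and 59 genes and 0 targets in each comparison. The other alternatives kept these counts within 1.5 times: quantile normalization, array medians subtracted, the probe set of largest variance, each probe set tested, a robust variance prior, array weights, only the arrays compared, protein-coding genes and a replicate block. Of 97 calls of named genes 58 held in all 6 leave-one-out fits, and none of them changed sign. For the 5 genes 1 difference changed sign, VGLL1 with shRNA#2 (-0.096 without replicate 1 of that group, 0.353 without replicate 2).

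The replicate numbers are shared by the groups, and nothing in the labels says that they pair samples. The replicate block gave 3598, 4227 and 2637 genes called and 4, 2 and 2 of the targets. Among calls of named genes 3 were lost under it, CALD1 with shRNA#4 (adjusted p 0.0519, limma) and CCN2 and TLN2 between hairpins (0.0538 and 0.0594). It gained KRT18 (0.0108), VGLL3 (0.0205), EREG (0.0447) and VIL1 (0.0458) between hairpins. With quantile normalization 5 of the 97 were lost. The differences between replicates correlated between groups at r = 0.179, 0.119 and 0.199 across genes, which are not independent. Signal over background could not be read from centred values, so no limit of detection is given.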
